A study of Rattus norvegicus with 20 samples.

Results

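The 200 genes described here are among the most read in the hippocampus of adult male rats, and none of them exceeded a set ratio between its dorsal and ventral parts. They were selected on their measured levels and ratios, as the 200 rows with the highest mean over all 20 samples among the rows that met 3 conditions. The mean of the 20 samples was at least 5000 normalized counts, the ratio of the RBD to the polyA mean lay between 0.25 and 4 after 5 was added to both means, and the ratio of the ventral to the dorsal mean lay between 0.5 and 2 in both datasets after 1 was added. They were chosen out of the 32883 rows of the deposited table, of which 753 had a mean of at least 5000 and 704 met all conditions. The rows carry no gene identifiers, so the members are given by their row number, no gene names, functions or sequences were tied to them, and the markers of hippocampal cell types were not checked. Since the members were chosen by the mean level, the library ratio and the dorsoventral ratio, these values are descriptions of the list and not findings about it. The absence of a strong gradient holds only in the sense of these bounds, as many members differed between the parts in every animal.

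All groups came from untreated male Wistar rats aged 3 months that had been handled before tissue collection, and the hippocampus of each rat, with the dentate gyrus, CA fields and subiculum, had been divided along its length into 3 equal portions of which the dorsal and the ventral ones were used. PolyA-enriched libraries (7 animals) were made from RNA with a poly(A) tail that was bound to oligo(dT) beads, after extraction with Qiazol. RBD libraries (3 animals) were made after depletion of ribosomal RNA, and this RNA had been extracted with ExtractRNA. The labels tie no animal to both kinds of library, and the samples are taken here as coming from 10 animals. The study's methods do not say so. Differences between the datasets in library type, extraction reagent and animals cannot be told apart. Reads on genes ranged from 14920611 to 25262001 per sample and were fewer in every RBD than in every polyA sample.

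The hippocampus is a curved cortical structure in which the same cell fields run along its whole length. The dorsal portion is best known for its role in spatial memory, and the ventral portion for its role in emotion and stress responses. The most abundant messenger RNAs of brain tissue usually come from genes that all cells use, such as those of protein synthesis and energy metabolism, and from genes of the major cell types. Which of the rows belong to such genes is not known here. Each sample is a mixture of cell types, so fewer cells of a type and less RNA per cell cannot be told apart.

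The share of reads that fell on the members was nearly the same in all 20 samples. Dorsal polyA samples had 22.4% to 22.8% of their reads on genes on the 200 members (median 22.5%, n = 7), and ventral polyA samples 22.2% to 22.5% (median 22.4%, n = 7). In the dorsal RBD samples the shares were 21.5%, 22.2% and 22.6%, and in the ventral RBD samples 21.4%, 22.6% and 21.9%. The shares of the dorsal and ventral samples overlapped in both datasets, and the RBD samples reached both below and into the polyA range. The 25 rows as high as the last member that the bounds left out took 8.88% to 11.7% in polyA samples. In RBD samples they took 1.96% to 3.10%. Since the bounds limited the library ratio, the similar shares are not read as a trait of the members. The 95% Wilson interval of a single share was at most 0.042 percentage points wide, so the spread between animals was larger than counting error. Intervals of this kind cover counting error only. As a normalized count is the number of reads on a gene and grows with the length of the transcript, the ranks below are ranks of reads and not of molecules.

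**Figure D1:**
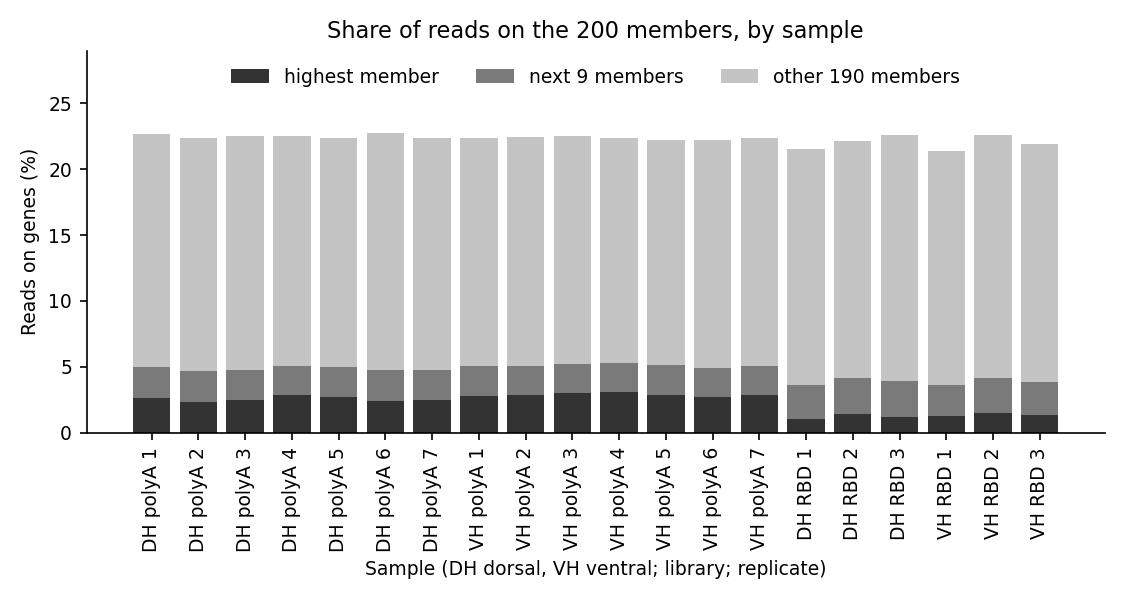
Stacked bars give the percent of reads on genes that fell on the highest member, the next 9 and the other 190 members, for each of the 20 samples (DH, dorsal; VH, ventral hippocampus). The total height lies between 21.4% and 22.8% in every sample, while the dark segment of the highest member is smaller in all 6 RBD samples.

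One member stood out among the 200. The gene in row 32602 alone took 2.36% to 2.85% of the reads in dorsal polyA samples (median 2.46%) and 2.72% to 3.11% in ventral polyA samples (median 2.84%). In RBD samples its share was 1.06%, 1.43% and 1.21% in the dorsal and 1.24%, 1.48% and 1.30% in the ventral part, below every polyA sample. The next 9 members took 2.20% to 2.36% of the reads in polyA and 2.39% to 2.68% in RBD samples, without overlap. The other 190 took 17.1% to 18.01% in polyA and 17.8% to 18.7% in RBD samples, with overlap. Mean levels over all 20 samples went from 502256 normalized counts in row 32602 and 72503 in row 1010, the next in rank, down to 11566 in row 8612, the last member (median of the members 17893). The first row left out by rank, row 10245, had 11527. Of the members, 61 had a mean below 15000, 56 had 15000 to 20000, 50 had 20000 to 30000, 25 had 30000 to 50000 and 8 had more.

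The list is not simply the top of the table, since 25 rows with a mean as high as that of the last member were left out. Of these, 13 lay below the library bound, 2 above it, and 10 had a ventral to dorsal ratio of 0.5 or less in at least 1 dataset. No row at this level was left out for being higher in the ventral part. Rows just inside and just outside the bounds were as follows. The lowest RBD to polyA ratio among the members was 0.394 (row 18099), while the nearest row left out had 0.215 (row 32605), and the highest were 3.06 (row 19160) inside and 17.1 (row 3282) outside. On the dorsal side the closest ventral to dorsal ratios were 0.525 (row 4315) inside and 0.460 (row 6163) outside in polyA, and 0.519 (row 29565) inside and 0.499 (row 21561) outside in RBD samples. On the ventral side the highest ratios of the members were 1.45 in polyA and 1.82 in RBD samples, both of row 1876, and stayed well inside the bound of 2.

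**Figure D2:**
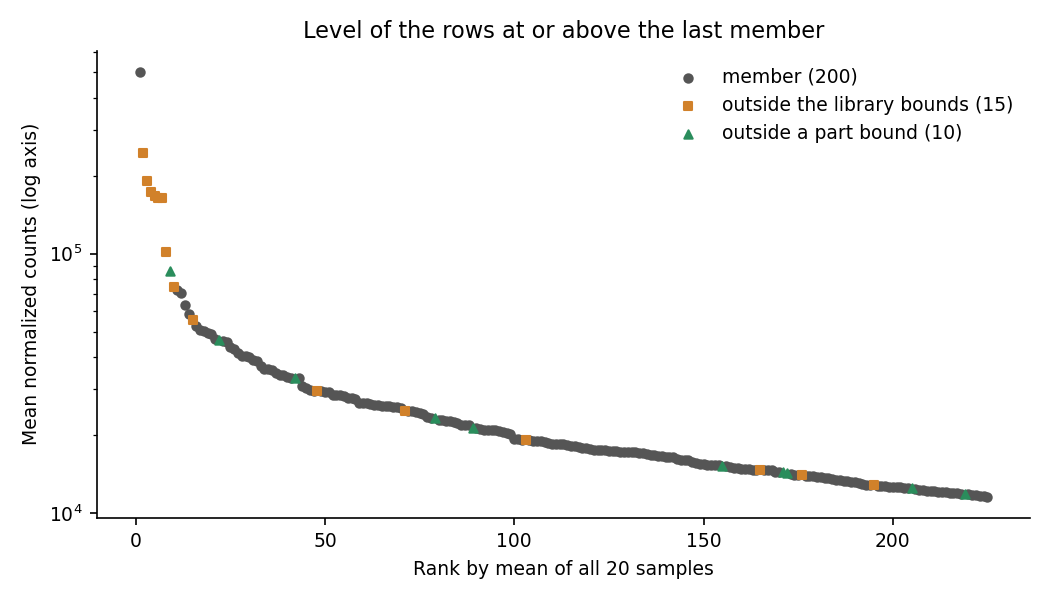
Mean normalized counts over all 20 samples (log axis) of the 225 rows at or above the last member, ordered by rank. Circles are the 200 members, squares the 15 rows outside the library bounds and triangles the 10 rows outside a dorsoventral bound; most of the 10 highest rows were left out for their library ratio.

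Most members differed only slightly between the hippocampal parts. The ratio of the ventral to the dorsal mean was within a factor of 1.2 for 145 of the 200 members in polyA and for 126 in RBD samples. Beyond this factor, 42 members were on the dorsal (21.0%) and 13 on the ventral side (6.5%) in polyA, where 14.5% and 15.8% of all genes tested were. In RBD samples 47 (23.5%) and 27 members (13.5%) were, against 18.3% and 18.5% of all genes tested. The bounds of the selection act on these ratios, so nothing is read from the counts. The median log2 difference of ventral minus dorsal was -0.01 over the members in polyA (-0.0043 over all 15152 genes tested) and -0.02 in RBD samples (0.0041 over all 14699 genes tested). The median absolute difference was 0.16 in polyA and 0.19 in RBD samples, against 0.16 and 0.18 over all genes tested. Here and in what follows, a log2 difference was taken after 1 was added to each normalized count.

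Small differences of this kind were measured precisely. With limma on log2(normalized counts + 1) and a Benjamini-Hochberg adjusted p below 0.1, 144 of the 200 members passed the threshold in polyA (68 higher in the ventral, 76 in the dorsal part), where 52.9% of all genes tested did. The smallest absolute log2 difference among these 144 was 0.067. In RBD samples 92 members passed (37 ventral, 55 dorsal), where 28.4% of all genes tested did. With both samples of RBD replicate 1 left out 53 members passed, 15 of them ventral, where 17.8% of all genes tested did. Without RBD replicate 3 the count was again 53, 20 of them ventral, where 14.7% of all genes did. In both datasets and in the same direction 89 members passed (44.5%), where 24.7% of the 14174 genes tested in both did. In neither dataset 53 members passed in these fits, which have no term for the animal. The share of all genes was not counted, and 53 is not a number of genes without a difference. The choice of the members used this contrast, so nothing is read from these shares. The median standard error was 0.038 for the members and 0.062 for all genes in polyA, and 0.078 and 0.11 in RBD samples.

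The direction was often the same in every animal. The ventral sample was higher in all 10 animals for 50 of the 200 members and the dorsal sample for 65, together 115 members. Of all genes tested in both datasets, the ventral sample was higher throughout for 15.7% and the dorsal sample for 16.9%, together 32.6%. Ventral and dorsal polyA samples did not overlap for 89 of the 200 members, with 34 ventral and 55 dorsal members. Of all genes tested in polyA, 22.2% had no overlap, 10.4% with the ventral and 11.8% with the dorsal samples higher. In RBD samples the parts did not overlap for 113 members (56.5% of the 200), with 51 ventral (25.5% of the 200) and 62 dorsal members (31.0% of the 200). Here the shares of all genes tested were 38.5%, 19.9% and 18.6%. Across the 200 members Pearson's r between the log2 differences of the polyA and those of the RBD dataset was 0.92. The selection limited the ratios in both datasets and no r over all genes was computed, so nothing is read from this value. Members are not independent replicates, and all points of one axis share the same libraries.

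**Figure D3:**
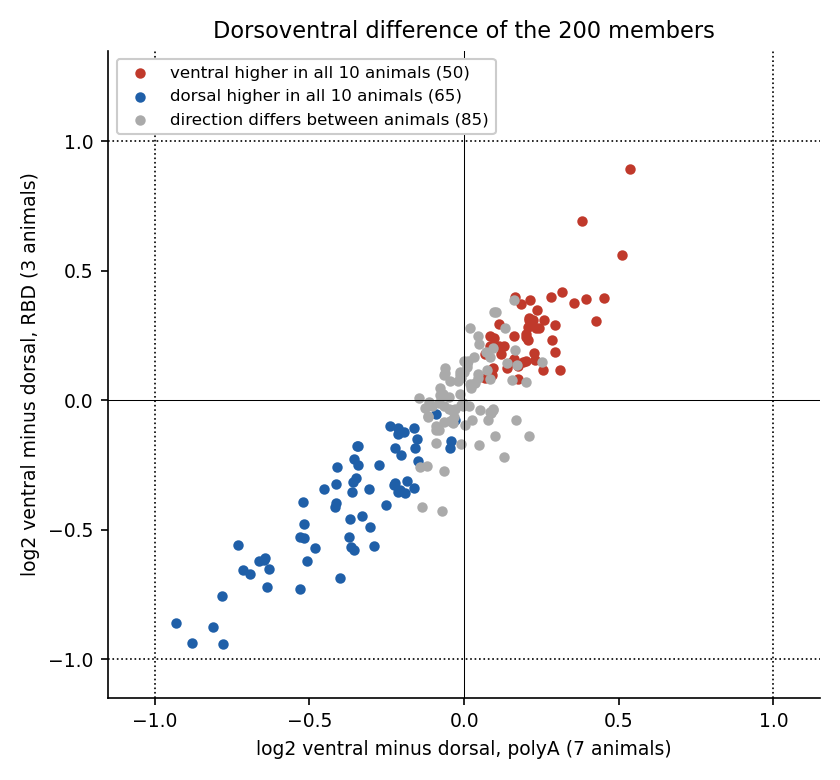
Mean log2 difference (ventral minus dorsal) of each member in 7 polyA animals (horizontal axis) and 3 RBD animals (vertical axis), with dotted lines at the bounds of the selection. The 50 members that were ventral in all 10 animals and the 65 that were dorsal lie along the diagonal, and the dorsal ones reach closer to the bound.

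Named members with the largest ventral differences were rows 1876 and 5905, chosen among members with the same direction in all 10 animals. Row 1876 had 8205 to 9648 normalized counts in the dorsal (median 9086) and 11938 to 14478 in the ventral polyA samples (median 13055). Its RBD values were 11140, 8441 and 14006 in the dorsal and 18937, 20556 and 21643 in the ventral part. The groups did not overlap in either dataset, and the mean log2 difference was 0.54 ± 0.10 (SD, n = 7) in polyA and 0.89 ± 0.35 (SD, n = 3) in RBD animals. The dorsal value was lowest in RBD replicate 2 among the RBD samples. Row 5905 had 8823 to 9658 (median 9253) in the dorsal and 12085 to 14028 (median 13385) in the ventral polyA samples, again without overlap. Its log2 difference was 0.51 ± 0.039 (SD, n = 7) in polyA and 0.56 ± 0.098 (SD, n = 3) in RBD animals, where the dorsal samples had 11230, 9871 and 11657 and the ventral samples 16376, 15655 and 16171 normalized counts.

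In the dorsal direction, rows 16417 and 4315 came close to the bound of the selection. Row 16417 had 17621 to 20298 normalized counts in the dorsal (median 19013) and 9741 to 10872 in the ventral polyA samples (median 10415). In RBD samples it had 22705, 26265 and 26419 in the dorsal and 12752, 13095 and 13461 in the ventral part, a log2 difference of -0.94 ± 0.092 (SD, n = 3), against -0.88 ± 0.11 (SD, n = 7) in polyA. Row 4315 had 28322 to 31942 in the dorsal (median 28945) and 13723 to 16542 in the ventral polyA samples (median 15797), a log2 difference of -0.93 ± 0.087 (SD, n = 7). Its RBD values, 28887, 30859 and 29407 in the dorsal and 15521, 18026 and 15691 in the ventral part, were at the level of the polyA values. For both rows every dorsal sample was far above every ventral sample of its dataset.

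The members with the most even levels were rows 12618 and 23275. Over all 20 samples row 12618 had a coefficient of variation (CV) of 3.10%, with 27718 normalized counts as the lowest (ventral RBD replicate 1) and 31965 as the highest value (dorsal RBD replicate 3). In row 23275 the CV was 3.26%, and values ran from 11839 in a dorsal RBD to 13433 in a ventral RBD sample. Among all members, the highest of the 20 values was less than 1.2 times the lowest in 5 rows, less than 1.5 times in 72 rows and less than 2 times in 153 rows. The widest range, 4.48-fold, was found in row 26921. It had 9066 to 13246 normalized counts in dorsal and 6112 to 7776 in ventral polyA samples. Its RBD values were 26675, 24016 and 27384 in the dorsal and 18426, 18632 and 22495 in the ventral part, so that every RBD sample was above every polyA sample.

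The highest member was itself not even across the samples. Row 32602 had a median of 539577 normalized counts in dorsal polyA samples (523972 to 637337) and of 621239 in ventral polyA samples (598289 to 690225). Its RBD values were 226148, 313065 and 267161 in the dorsal and 255440, 317292 and 274489 in the ventral part. The dorsal and ventral samples overlapped in both datasets, while all RBD samples were below all polyA samples. Within animals the ventral sample was higher in 6 of 7 polyA and in 3 of 3 RBD animals, with mean log2 differences of 0.15 ± 0.10 (SD, n = 7) and 0.078 ± 0.085 (SD, n = 3). Row 1010, the next in rank, had 70103 to 80790 in dorsal and 72791 to 79207 in ventral polyA samples, and its log2 difference was -0.012 ± 0.044 (SD, n = 7), smaller than its spread between animals. Its 6 RBD values, 57308 to 69082, lay below the lowest polyA value.

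**Figure D4:**
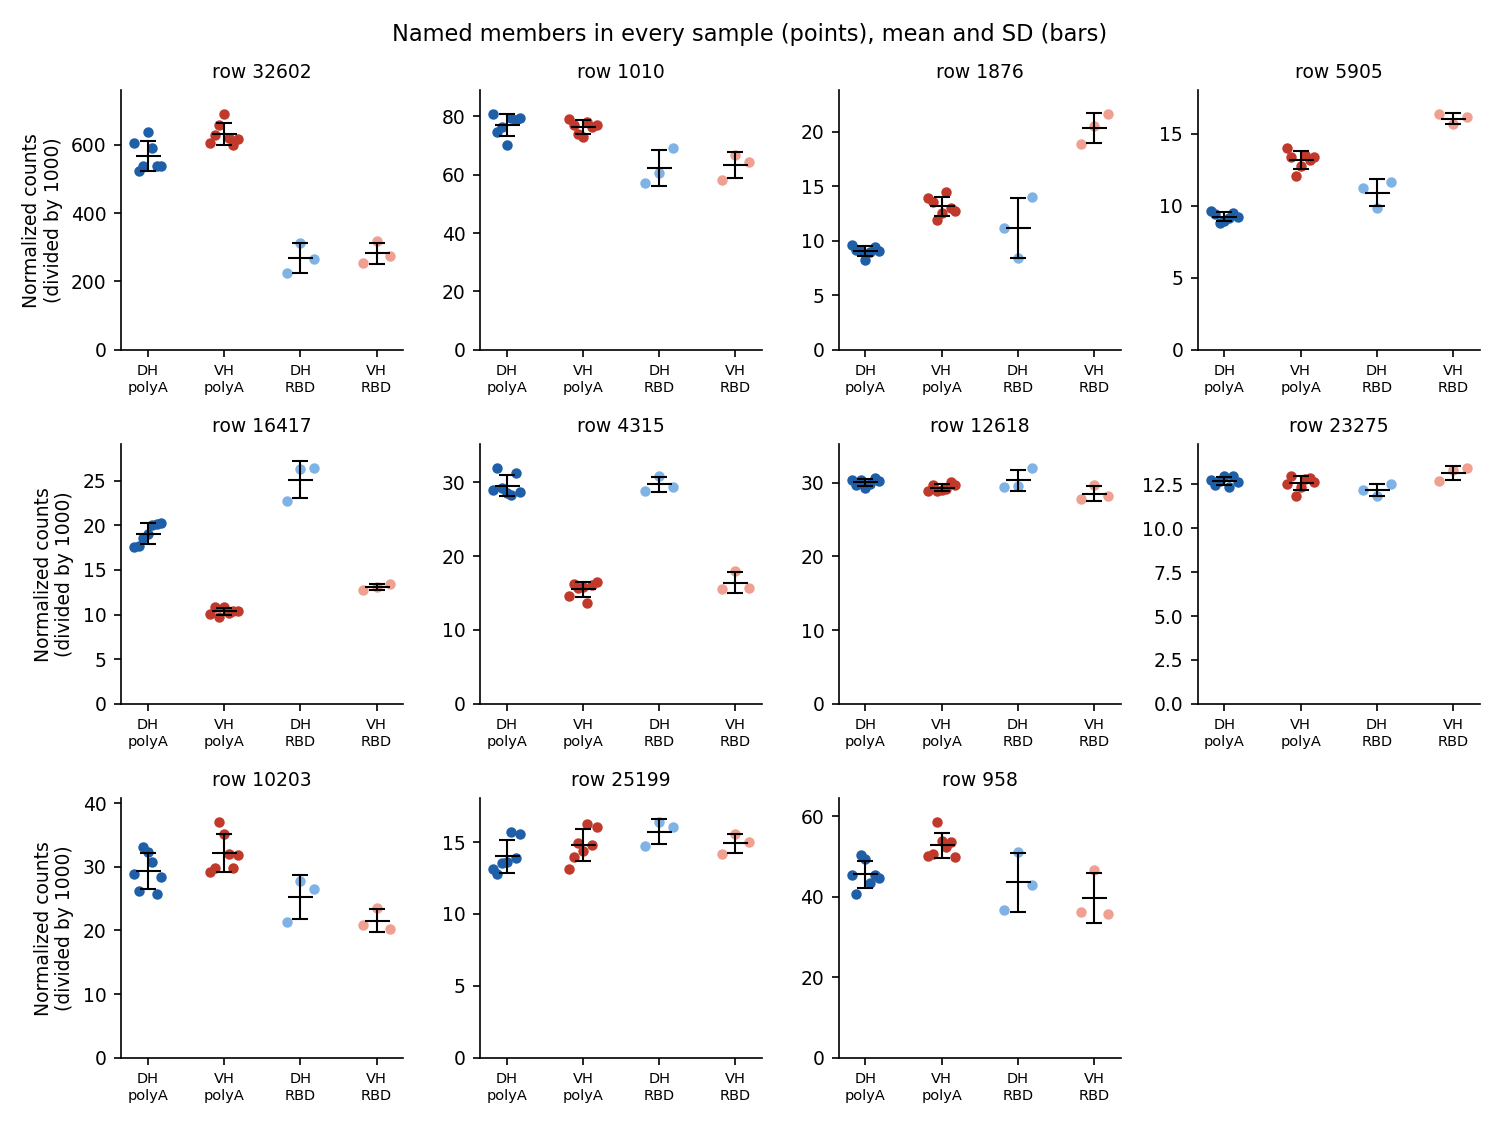
Normalized counts (divided by 1000, axes from 0) of the named members in every sample (points) of the dorsal (DH) and ventral hippocampus (VH), with the mean and SD of each group (n = 7 polyA, n = 3 RBD). Rows 12618 and 23275 are level across the 4 groups, rows 16417 and 4315 are higher in every dorsal sample, and row 32602 is lower in every RBD sample.

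Differences between the library types were found in both directions. The median log2 difference of RBD minus polyA over the members was -0.095 in dorsal and -0.081 in ventral samples, and 0.0087 and -0.0017 over all 14174 genes. With TMM scaling the medians of the members were -0.12 and -0.11. The RBD and polyA samples did not overlap in either hippocampal part for 113 members, with 50 members higher in RBD samples and 63 higher in polyA samples. Of all genes tested in both datasets, 23.2% were higher in RBD and 20.5% in polyA samples in this way. Row 18099 had the lowest ratio, with 29715 to 35662 normalized counts in dorsal and 28801 to 33320 in ventral polyA samples. Its RBD values were 13218, 15125 and 13986 in the dorsal and 9666, 11945 and 9963 in the ventral part. Row 19160 had the highest ratio. It had 13418 to 17225 in dorsal and 14456 to 19141 in ventral polyA samples, and its RBD values were 43892, 37347 and 48977 in the dorsal and 46418, 56860 and 54477 in the ventral part. The library ratio was used to choose the members, and it cannot be told apart from the animals and the extraction reagent.

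The spread between animals was not used in the selection. The median CV of the members was 4.76% in dorsal and 4.76% in ventral polyA samples (n = 7), and 6.97% and 5.15% in RBD samples (n = 3). Counting alone would give medians of 0.70%, 0.70%, 0.83% and 0.84%. In dorsal samples the CV was more than 2 times the counting value for 199 of the 200 members in polyA (99.5%) and for 192 in RBD samples (96.0%). This held for 36.6% and 39.0% of the 13305 rows with at least 10 reads in every sample, for which counting error is larger, and for 94.2% and 82.5% of the 504 other rows within the bounds. Over the 13305 rows the median CVs were 7.26% and 7.00% in polyA, where counting alone gives 4.04% and 3.99%, and 8.17% and 7.46% in RBD samples. The 504 other rows within the bounds, which have fewer reads, had 4.73% and 4.74% in polyA and 5.70% and 4.80% in RBD samples, close to the members. No test was made between these sets, since rows of the same libraries are not replicates.

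**Figure D5:**
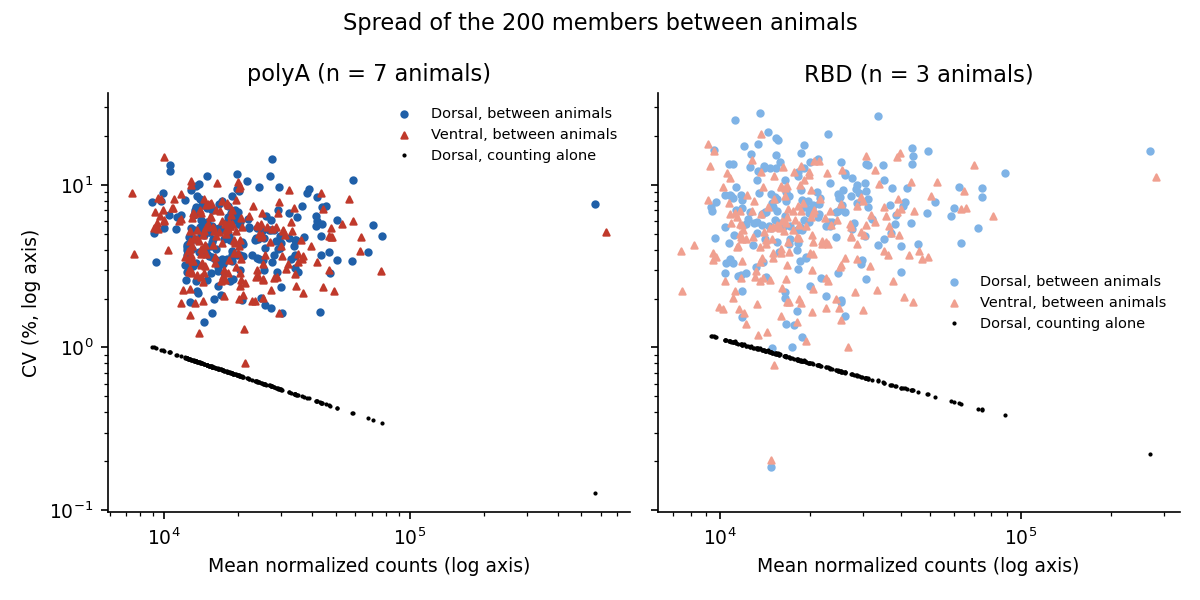
CV between animals of each member (percent, log axis) against its mean normalized counts (log axis) in polyA (left, n = 7) and RBD samples (right, n = 3), with dorsal samples as circles and ventral samples as triangles. Small black dots give the CV expected from counting alone in the dorsal samples, and nearly all polyA points lie above them.

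Whether the dorsal and the ventral sample of the same animal deviated together was tested with limma as an F-test of the animal beside the hippocampal part, over all genes and with a Benjamini-Hochberg adjusted p below 0.1. In polyA samples 42 of the 200 members passed, which is 21.0%, where 17.5% of all genes tested did. The count was 26 without polyA replicate 3 and 26 without polyA replicate 5 (13.0% of the members in both cases), where 12.7% and 12.1% of all genes passed. In RBD samples 29 members passed (14.5%), where 11.0% of all genes tested did, and the count was 16 without RBD replicate 1 and 45 without RBD replicate 3, where 6.28% and 17.8% of all genes passed. How far the members stood from all genes depended on the tool. With edgeR 22.0% of the members and 17.9% of all genes passed in polyA, and with DESeq2 26.5% and 11.5%. In RBD samples these shares were 14.5% and 11.2% with edgeR, and 14.5% and 4.56% with DESeq2. The 504 other rows within the bounds had 26.4% in polyA and 15.3% in RBD samples. In both datasets 9 members passed (4.5%), where 4.32% of all genes tested in both did. They were 21.4% of those that passed in polyA and 31.0% of those in RBD samples. Over all genes 612 passed in both datasets, 2656 in polyA and 1610 in RBD samples. The labels tie no animal to both datasets. What the 2 samples of an animal have in common besides the animal, such as the day of dissection or extraction, was not tested.

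Deviations of the animals were small. Among the 42 members of the polyA dataset, the animal farthest from the mean was replicate 3 for 18 members (lower in 14 of them) and replicate 5 for 9 (lower in 7). The strongest animal term was that of row 10203 (adjusted p = 0.0036 from limma's F-test). Its dorsal polyA values were 28946, 26250, 33098, 32301, 30827, 25705 and 28365 normalized counts in replicates 1 to 7, and its ventral values 29215, 29752, 37039, 35200, 31972, 29766 and 31894. Replicates 3 and 4 were the 2 highest in both parts, and the deviations of the animals from the mean of all ran from -0.15 to 0.19 on the log2 scale. Row 25199 followed (adjusted p = 0.0045 from limma's F-test), with dorsal values of 13141, 12809, 13534, 13589, 15670, 13859 and 15590 and ventral values of 13127, 13961, 14965, 14352, 16240, 14773 and 16048. Here replicates 5 and 7 were highest in both parts. The median SD between polyA animals of the mean of both parts was 0.059 over the members on the log2 scale, and that of the difference between the parts was 0.072. A mean and a difference of 2 samples have unlike scales, so these SDs are not compared.

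The difference between the dorsoventral differences of the 2 datasets was tested by an interaction term in limma that took each animal as a block (adjusted p below 0.1). It passed for 29 members (14.5%), where 10.2% of all 14174 genes did. In RBD samples the difference was shifted to the ventral part in 12 of them (6.0% of the members) and to the dorsal part in 17 (8.5%). Over all genes the shares were 4.57% and 5.58%. With size factors taken within each dataset 8 of 27 members were shifted to the ventral part, and 466 of 1368 over all genes. In 5 members the 2 datasets had opposite signs, and the largest absolute difference was 0.36. The selection limited both dorsoventral ratios, so the count is a description. Without the block 0 members passed in limma (35 at an unadjusted p below 0.05), and no other tool was run in that way. Leaving out single animals moved the count in the same direction as the share of all genes, but not in proportion. It was 12 without polyA replicate 3 and 16 without polyA replicate 2, where 5.23% and 5.84% of all genes passed, and 33 without polyA replicate 1, where 12.7% did. Without RBD replicates 1, 2 and 3 the count was 17, 19 and 15 (8.5%, 9.5% and 7.5% of the members), where 8.45%, 8.32% and 3.23% of all genes passed. Without RBD replicate 3, 10 of the 15 members were shifted to the ventral part. Over all genes that passed 204 of 459 were, against 648 of 1439 with all animals.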

How the data were processed

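Per the submitters' processing notes and the study's methods, the authors aligned reads to Rnor_6.0 using STAR 2.7.9a, obtained counts per gene from featureCounts 2.0.1 and normalized them with DESeq2 1.29 (median of ratios). The deposited values are therefore normalized counts, treated here as signal, and rows have no gene identifiers. Reads on genes were recovered from them, since 100% of the values above 0 came out as whole reads (tolerance 1e-06) when divided by the value of 1 read. The methods speak of normalization for each dataset, but size factors computed over all 20 samples gave the deposited scale. The members and the tests were chosen with earlier results of these data known.

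Tests were made with limma 3.58.1 (lmFit, then eBayes with a trend) in R 4.3.3 on log2(normalized counts + 1), for genes kept by the filterByExpr function of edgeR on the recovered reads, with Benjamini-Hochberg adjustment over all of them and a threshold of 0.1. The dorsoventral fits have no term for the animal, since the study's methods state none. The column names of the polyA samples give the animal. The RBD samples were paired by the replicate number in their labels, and every statement on single RBD animals, the RBD animal term, the block and the interaction rests on this pairing. Deviations from the group means within an animal correlated by 0.20 to 0.47 in polyA and 0.35 to 0.52 in RBD animals over 13305 rows. Over the members they correlated by 0.037 to 0.61 and 0.54 to 0.68. Rows were named by a fixed rule: the 2 highest means, the 2 largest differences to each hippocampal part with the same direction in all 10 animals, the 2 lowest CVs, the 2 strongest animal terms in polyA and interactions, and the rows next to the bounds. Row 26921 was added after its values were seen.

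Alternatives were edgeR 4.0.16 (quasi-likelihood, TMM) and DESeq2 1.42.0 on the recovered reads, other scalings, pseudocounts and filters, a threshold of 0.05, the animal as a block and leaving out each animal. The samples of a group come from separate animals.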

Additional observations from a re-analysis of the deposited data

Results flagged for a closer look

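For 4 of the named members, limma's interaction test (each animal a block) found unequal dorsoventral differences in the 2 datasets. The value given is the RBD minus the polyA log2 difference of ventral minus dorsal. In row 958 it was -0.35 (adjusted p = 0.014 from limma), as the ventral sample was higher in all 7 polyA animals (by 0.13 to 0.32) and lower in all 3 RBD animals (by -0.26 to -0.015). In row 10203 it was -0.35 (adjusted p = 0.019 from limma), again with the ventral sample higher in all 7 polyA animals (0.013 to 0.21) and lower in all 3 RBD animals (-0.38 to -0.027). These rows were named for having the smallest p among the members. In row 25199 the value was -0.15 (adjusted p = 0.071 from limma), with 0.076 ± 0.050 (SD, n = 7) in polyA and -0.077 ± 0.024 (SD, n = 3) in RBD animals. In row 1876 it was 0.35 (adjusted p = 0.058 from limma), with a larger mean ventral excess in RBD animals. The RBD differences were 0.77, 1.28 and 0.63 in replicates 1 to 3, against 0.40 to 0.70 in polyA animals. The test takes 1 spread for both datasets, while the SD was 0.35 in RBD and 0.10 in polyA animals. Without the block the adjusted p was 0.26 for row 958 and 0.26 for row 10203 in limma. In the 35 groups of 7 polyA values that were tested for a single distant sample, 0 had one, where chance gives about 1.75.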

How the results depend on the processing

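The list itself changed little, with 197 to 199 of the 200 members kept without 1 animal, 200 with TMM scaling and 189 when the 4 groups were given equal weight. Of the 5 counts of members past the threshold, those of the dorsoventral difference stayed within 1.5 times the reported value in all settings with all animals. With the animal as a replicate block they were 157 (polyA) and 128 (RBD), where 59.8% and 40.1% of all genes passed. Of these members 74 were ventral in polyA and 59 in RBD samples. Over all genes that passed 4375 of 9056 and 2905 of 5895 were. Pairing by animal changed 3 of 22 dorsoventral calls of the 11 named members. Row 10203 passed with the block in polyA (adjusted p = 0.0017 against 0.11 in limma) and in RBD samples (0.026 against 0.21), and row 25199 in polyA (0.021 against 0.27). The animal term in polyA gave 12 members (6.0%) without a filter on low values, where 6.83% of all genes passed. At an adjusted p below 0.05 it gave 18 (9.0%), where 10.9% of all genes did. The interaction gave 11 members without a filter, 11 at 0.05 and 0 with no replicate block, where 3.78%, 4.16% and 0.198% of all genes passed. Leaving out 1 animal gave 133 to 137 members for the polyA dorsoventral difference, where 49.1% to 50.3% of all genes passed. For the RBD difference it gave 53 to 70 members, where 14.7% to 22.0% of all genes did. The animal term gave 26 to 58 members in polyA (all genes 12.1% to 19.7%) and 16 to 45 in RBD samples (all genes 6.28% to 17.8%). The interaction then gave 12 to 33 members, where 3.23% to 12.7% of all genes passed. The median SD of log2 values in ventral RBD samples was 0.045 to 0.085 without 1 animal (0.075 with all), the lowest without RBD replicate 2. Each of these fits has fewer samples, and other causes were not tested. With 2 RBD animals the tests rest on a spread that limma shares over all genes. The dorsoventral differences of rows 1876, 5905, 16417 and 4315 and the interactions of rows 958 and 10203 kept their sign in every setting run. The lowest value of any member in any sample was 5252 reads, and counting error was far below the spread between animals.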

Other observations

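The 13 rows with a mean as high as that of the members that lay below the library bound all had row numbers from 32588 to 32621, a run of 34 rows that also held 1 member, row 32602. Their RBD to polyA ratios were 0.00092 to 0.215, against 0.460 in row 32602. What orders the rows of the table is not given in the sources used here, and this run was noticed after the values were seen.

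Deviations of the members from their group means in the 14 polyA samples were summarised by principal components. The sign of a component is arbitrary. The first held 34.2% of the variance. On one side its largest scores were in the ventral and dorsal samples of replicate 3 (0.92 and 0.73) and the dorsal sample of replicate 4 (0.79, ventral 0.17). On the other side they were in the dorsal sample of replicate 2 (-0.90, ventral -0.57), the ventral sample of replicate 1 (-0.85, dorsal -0.35) and the dorsal sample of replicate 6 (-0.78, ventral -0.047). The second held 26.4%, with the largest scores on one side in the dorsal and ventral samples of replicate 5 (0.98 and 0.82). On the other side they were in the dorsal sample of replicate 4 (-0.63, ventral -0.44) and the ventral sample of replicate 3 (-0.62, dorsal -0.12).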
